A study of Mus musculus with 2 samples.

Results

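Dynein light chains are the small subunits of the dynein motors, and their promoters were examined for open chromatin in the testis of young mice. The 9 members are the protein-coding genes Dynlt1a, Dynlt1b, Dynlt1c, Dynlt1f, Dynlt3, Dynll1, Dynll2, Dynlrb1 and Dynlrb2, taken by symbol from the 21911 protein-coding genes of the GENCODE vM21 annotation of mm10. The family was selected on the measured promoter peak value of Dynlt1b, already known to be the highest in these data, so the promoter values below are a description and carry no test. The study mapped DNase I cutting, which marks exposed DNA, in testis taken whole from B6CASTF1/J males aged 14 days. These mice are first-generation hybrids of a C57BL/6J parent and a castaneus-derived parent, so each autosomal promoter is present in 2 parental versions while mm10 is built on C57BL/6J alone. No treatment was given in the labels and no second condition was studied, which leaves 1 group with 2 libraries, called replicate 1 and replicate 2. The label of replicate 1 speaks of 3 males pooled and both libraries share a donor label, so their spread may be partly technical. Whole tissue was used, so a promoter open in fewer cells and one less open in each cell cannot be told apart.

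Cytoplasmic dynein walks along microtubules towards their minus ends, and dynein 2 does so inside cilia. Light chains of the Dynlt (Tctex1), Dynll (LC8) and Dynlrb (roadblock) families sit as dimers on the dynein intermediate chains, where they hold the tail of the motor together. In the testis, dynein moves chromosomes during meiotic prophase, positions nuclei and serves the manchette and the flagellum of later germ cells. Dynlt1 was first described in mice as a gene of the t complex on chromosome 17 that is strongly expressed in testis, and the mouse reference holds several copies of it in tandem. At a repeated locus the signal given to each copy depends on how reads that match several places were handled, and the sources used here do not state that step.

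The Dynlt1 promoters differ by few bases and by much in signal. Over the 160 bases of the Dynlt1b peak the alignments of the other copies had no gap. Dynlt1a differed from Dynlt1b by 5 substitutions (96.9% identity). Dynlt1c and Dynlt1f each differed from it by the same 6 substitutions (96.3% identity), and so were identical to each other over the 160 bases.

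Every light chain gene had an open promoter, and Dynlt1b stood far above the rest. A promoter peak, meaning a peak of the longer deposited list that touches 1000 bp on either side of an annotated start, was listed in both libraries at 9 of 9 members. The same held for 68.7% of the 21911 genes. The value of the highest such peak is the authors' own signal, scaled per library. Over the genes with a promoter peak in the library concerned, the median value was 3.87 in replicate 1 and 3.50 in replicate 2. The members' median was 6.40 and 4.62. At or above the median value of all peaks in their library (0.543 and 0.506) were 9 of 9 members, against 61.4% of all genes, and a value of at least 10 in both libraries was reached by 4 of 9, against 11.1%. The rule already knew Dynlt1b to be high, and the values of its 4 near-identical copies are not independent of one another, so nothing is read from these counts.

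**Figure D1:**
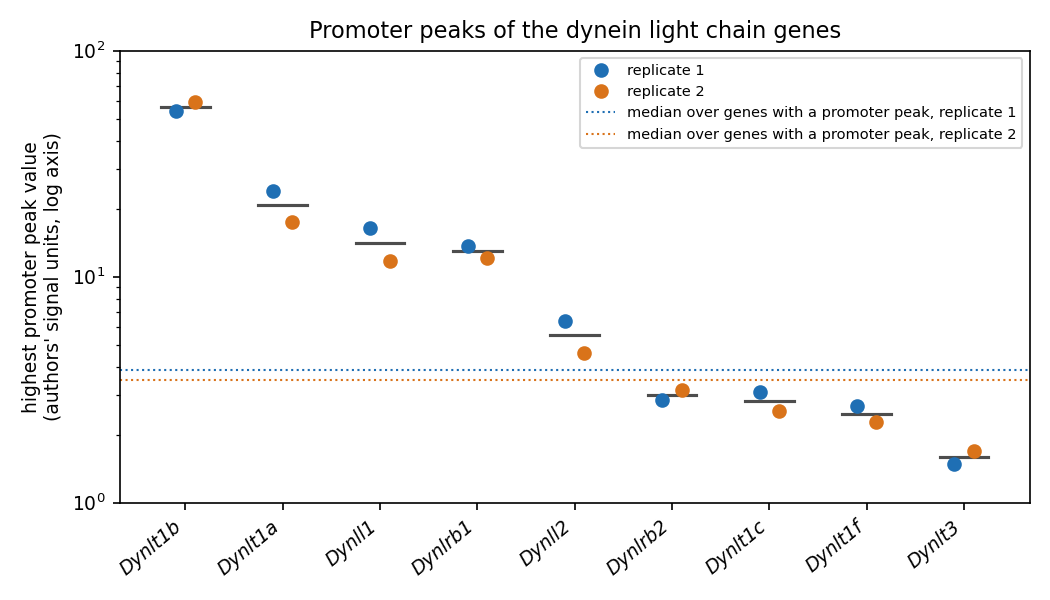
Highest promoter peak value (authors' signal units, log axis) of each of the 9 light chain genes in replicate 1 (blue) and replicate 2 (orange), with their mean as a bar. Dotted lines give the median over the genes with a promoter peak in each library. Dynlt1b sits at 53.9 and 59.4, and 4 members, from Dynlrb2 to Dynlt3, sit below both dotted lines.

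Dynlt1b (chromosome 17, 6430112 to 6436296, plus strand) had a value of 53.9 in replicate 1 and 59.4 in replicate 2, a mean of 56.7 ± 3.86 (SD, n = 2). It ranked 1 among the 21911 genes in both libraries. Its peak covered the same 160 bp in both libraries, over the sequence just upstream, the 5' end and the untranslated start of exon 1, which is narrower than the median peak of 192 and 191 bp. Dynlt1a (6306340 to 6317500, minus strand) came second among the members with 24.03 and 17.5 (20.8 ± 4.59), at ranks 46 and 487. Its peak of 180 bp reached from upstream into the coding part of exon 1. Dynlt1c (6601671 to 6609774, plus strand) had 3.10 and 2.56 (2.83 ± 0.383) at ranks 8516 and 8884. Dynlt1f (6646602 to 6655900, minus strand) had 2.67 and 2.26 (2.47 ± 0.288) at ranks 9028 and 9284, from a peak of 200 bp that lay wholly upstream of its 5' end. The Dynlt1b value was 2.24 and 3.38 times that of Dynlt1a in the 2 libraries, 17.4 and 23.2 times that of Dynlt1c, and 20.2 and 26.2 times that of Dynlt1f. The ranges of Dynlt1b and Dynlt1a did not overlap with each other or with those of the other copies, whereas Dynlt1c (2.56 to 3.10) and Dynlt1f (2.26 to 2.67) overlapped. When all peaks of the windows were summed, Dynlt1f rose to 4.55 and 3.81, above Dynlt1c in both libraries, and the Dynlt1b value was 11.8 and 15.6 times that of Dynlt1f.

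Dynlt3, the X-linked relative of Dynlt1 (chromosome X, 9654267 to 9663003, minus strand), had the lowest value of the family, 1.48 and 1.70 (1.59 ± 0.152). Its rank was 10811 and 10190, and Dynlt1b stood 36.3 and 34.96 times above it. In males the X chromosome is present in 1 copy and, in these hybrids, comes from the mother. A second, weaker peak of Dynlt3 lay in an intron, with 0.392 and 0.464.

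The LC8 genes encode a hub protein that binds short motifs in many partners besides dynein. Dynll1 (chromosome 5, 115297110 to 115300999, minus strand) had 16.4 and 11.7 (14.1 ± 3.32), at ranks 589 and 1897. Dynll2 (chromosome 11, 87979525 to 87987533, minus strand) had 6.40 and 4.62 (5.51 ± 1.26), at ranks 5328 and 6541. Dynll1 was the higher of this pair by 2.57 and 2.54 times. The peaks were 240 to 280 bp wide and centred 82 to 102 bp upstream of the 5' ends. Both were higher in replicate 1, and so was Dynlt1a.

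The roadblock genes differed between the paralogs too. Dynlrb1 (chromosome 2, 155236533 to 155250277, plus strand) had 13.7 and 12.1 (12.9 ± 1.15), at ranks 1253 and 1768. Dynlrb2 (chromosome 8, 116504974 to 116515915, plus strand), known from ciliated tissues and testis, had 2.85 and 3.14 (3.00 ± 0.206), at ranks 8801 and 8143. Dynlrb1 was 4.82 and 3.86 times as high as Dynlrb2. Dynll1 and Dynlrb1 were thus each at least 2.54 times as high as their paralog in each library. The 2.24 and 3.38 times of Dynlt1b over Dynlt1a rest on the value by which the members were chosen.

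By mean value the order was Dynlt1b, Dynlt1a, Dynll1, Dynlrb1, Dynll2, Dynlrb2, Dynlt1c, Dynlt1f and Dynlt3. Dynll1 and Dynlrb1 changed places between the libraries, and so did Dynlrb2 and Dynlt1c. Other neighbours kept their order in both. From replicate 1 to replicate 2 the log2 ratio of the members ran from -0.49 (Dynll1) to 0.20 (Dynlt3), with a median of -0.24, while over all open genes the median was -0.07 and the 5th to 95th percentile ran from -0.54 to 0.36. All 9 members lay within that range, and 3 of 9 were higher in replicate 2, against 39.5% of all open genes.

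**Figure D2:**
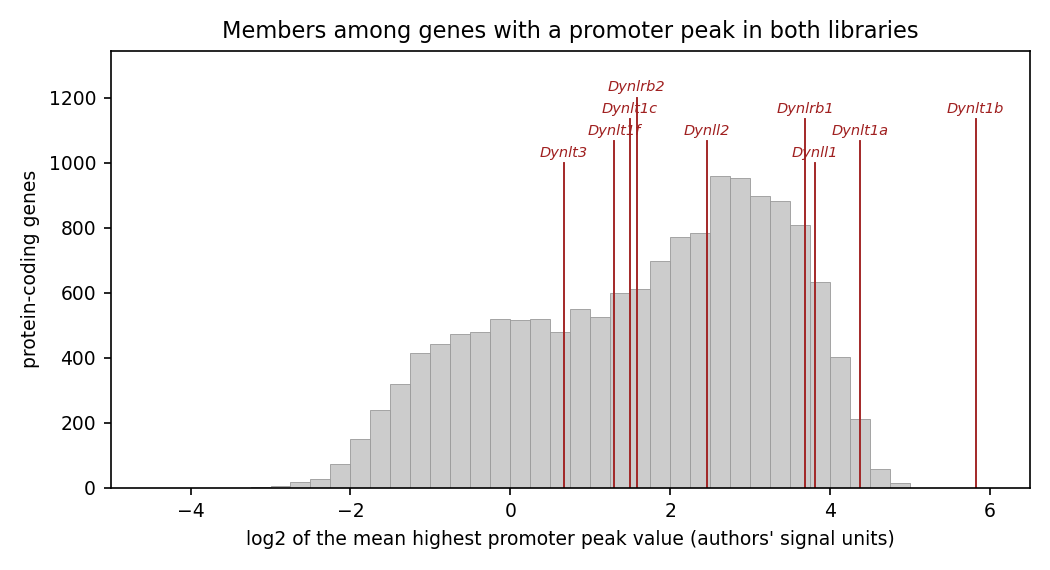
Number of protein-coding genes (bars) by log2 of the mean highest promoter peak value over both libraries, for the 15057 genes open in both, with the 9 members as red lines. Dynlt1b (mean 56.7) stands to the right of all bars that can be seen, and Dynlt3 (mean 1.59) left of the middle.

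The genes closest to Dynlt1b in the 2 values, by Euclidean distance of log2 values, were Dnpep (28.2 and 37.7, distance 1.14) and the divergent pair Hjurp and Trpm8 (31.5 and 30.7 at a peak they share, distance 1.23). Every other gene is lower because Dynlt1b was chosen as the highest, and with 2 points the likeness says only which levels are nearest.

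No other protein-coding gene had its highest promoter peak in the same peak as a member, in either library. Within 250 kb of the Dynlt1 genes, 6 further protein-coding genes were open in both libraries. Serac1 and Gtf2h5 had 13.9 ± 1.23 at a peak they share, Ezr 3.29 ± 0.309, Tulp4 3.13 ± 0.154, Sytl3 0.604 ± 0.0793 and Tmem181a 0.462 ± 0.0390 (SD, n = 2 for each). Sytl3 begins 3.193 kb from the 5' end of Dynlt1f and Tmem181a 60.64 kb from that of Dynlt1a, so the high values of Dynlt1b and Dynlt1a were not shared by the nearest other genes.

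The Dynlt1 copies are so alike that the reference alone limits how a read could be placed. The peak sequence of each of the 4 copies had 3 further full-length copies in mm10, those of the other Dynlt1 genes, whereas the peaks of Dynlt3, Dynll1, Dynll2, Dynlrb1 and Dynlrb2 had none. Of all words of 36 bases in the highest peak, the share found once in mm10 on either strand was 52.8% at Dynlt1b, 84.1% at Dynlt1a, 55.8% and 49.7% at Dynlt1c, where the peak limits differed between libraries, and 21.8% at Dynlt1f. It was 100% at the other 5 members. Among all open genes in replicate 1, 94.6% had only unique words in the highest peak and 2.98% had fewer than 90%, so the Dynlt1 copies belong to a small minority of promoters. Within the 160 equivalent bases the unique share was 63.2% at Dynlt1a and 52.8% at Dynlt1b, and 0% at both Dynlt1c and Dynlt1f, whose letters are the same there. With words of 76 bases it was 92.9% at Dynlt1a and Dynlt1b and still 0% at Dynlt1c and Dynlt1f. Over the highest peaks, however, words of 76 bases raised the share to 78.4% at Dynlt1f, 78.4% and 67.6% at Dynlt1c, 92.9% at Dynlt1b and 100% at Dynlt1a. The sources used here state neither the read length nor how reads with several matches were treated, and their part in the 17.4 to 26.2 times between Dynlt1b and the 2 lower copies was not tested. Variants of the castaneus parent at these copies were not analysed here.

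The position of the peaks differed as well. On a scale set at the base equivalent to the 5' end of Dynlt1b, the Dynlt1b peak ran from -91 to 68 and the Dynlt1a peak from -60 to 119 in both libraries. That of Dynlt1c, whose annotated 5' end lies 39 bp upstream of the common base, ran from -189 to 10 and from -189 to 30. That of Dynlt1f ran from -220 to -21 in both libraries. The peak thus held 80.6% of the 160 equivalent bases at Dynlt1a, 63.8% and 76.3% at Dynlt1c and 44.4% at Dynlt1f. The listed peaks of the lower copies lay further upstream and ended within the 160 bases where Dynlt1c and Dynlt1f have the same letters. Of the 36-base words in these peaks, 55.8% and 49.7% were unique at Dynlt1c and 21.8% at Dynlt1f. Any part of this in the peak position was not tested.

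**Figure D3:**
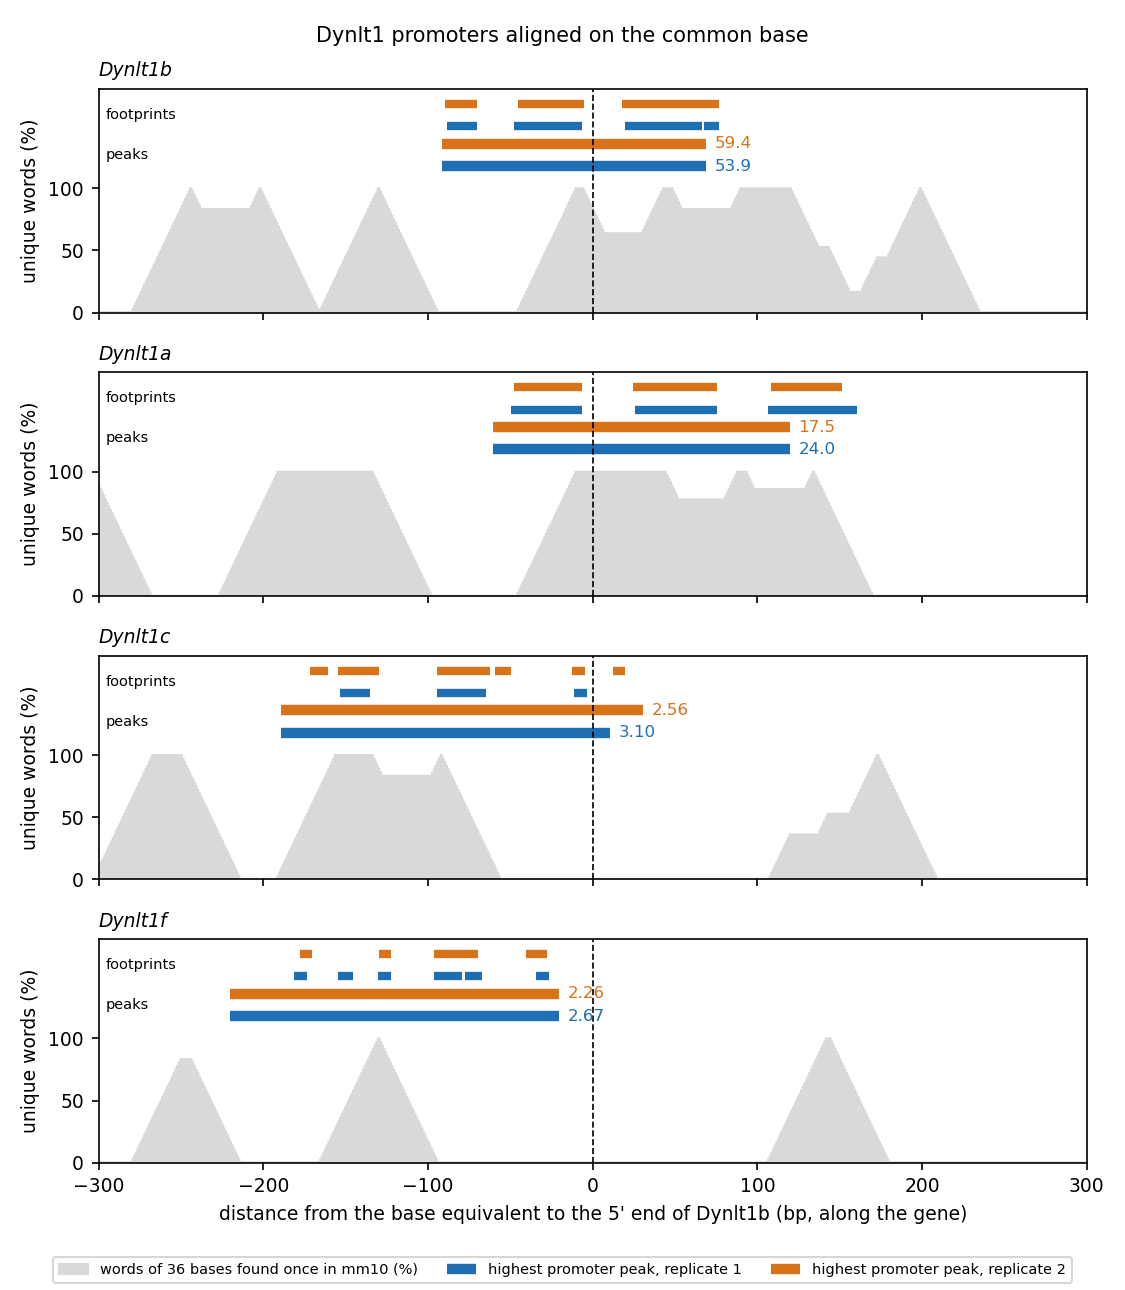
The 4 Dynlt1 promoters on a common scale (bp from the base equivalent to the 5' end of Dynlt1b, along the gene), with the highest peak and its footprints in replicate 1 (blue) and replicate 2 (orange), the peak value printed beside each peak, and in grey the share of 36-base words over each base that occur once in mm10. The peaks of Dynlt1b and Dynlt1a lie over the common base, those of Dynlt1c and Dynlt1f mostly upstream of it, where grey areas give way to 0% around the common base.

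Footprints, short stretches inside open DNA that were cut less, lay at the same places in Dynlt1a and Dynlt1b. At Dynlt1b they covered -88 to -71, -47 to -7, 20 to 66 and 68 to 76 in replicate 1, and -89 to -71, -45 to -6 and 18 to 76 in replicate 2. In its highest peak, Dynlt1a had them at -49 to -7 and 26 to 75 in replicate 1 and -47 to -7 and 25 to 75 in replicate 2, and a further one lay at 107 to 160 and 109 to 151, downstream of the Dynlt1b peak. Within the 160 equivalent bases, 107 and 110 bases were under a footprint at Dynlt1b and 107 and 106 at Dynlt1a. Between these copies 101 such bases were shared in replicate 1, which is 94.4% of each, and 102 in replicate 2, which is 96.2% of those of Dynlt1a and 92.7% of those of Dynlt1b. Dynlt1c had 53 and 66 such bases and Dynlt1f 30 and 35, and of these 37 and 40 at Dynlt1c and 24 and 32 at Dynlt1f were shared with Dynlt1b. Around the common base itself, neither Dynlt1a nor Dynlt1b had a footprint in either library.

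Letters known from factor binding sites fell under these footprints. Searched on both strands, the GC box GGGCGG, bound by Sp factors, lay at -80, -29 and 27 of Dynlt1a and Dynlt1b, and each of these matches was covered by a footprint in both libraries, that at -80 of Dynlt1a by one outside its highest peak. At Dynlt1c and Dynlt1f no match lay at -29, and the match at 27 was under no footprint. That match lay outside the listed peak of Dynlt1f in both libraries and of Dynlt1c in replicate 1. In replicate 2 it lay only partly inside the peak of Dynlt1c. The match at -80 was covered in both libraries at Dynlt1c and in replicate 2 at Dynlt1f. The NRF1 letters (GCGCA, any base, then GCGC) lay at 51 to 60 in all 4 copies. They were covered in both libraries at Dynlt1a and Dynlt1b, in replicate 1 at Dynlt1c and in neither at Dynlt1f. At Dynlt1c and Dynlt1f they lay outside the listed peak. In windows of 160 bases placed alike at all 21911 genes, 37.0% held the GC box letters and 4.83% the NRF1 letters. CCAAT letters lay at -2 to 2 of the common base in each copy, under no footprint in either library, and 24.8% of such windows held them. At Dynlt1f these letters lay outside the listed peak. A match describes letters and does not show a bound factor.

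Within Dynlt1 the coding sequences were more alike than the promoters, and between the other paralogs they were less alike. Dynlt1a, Dynlt1c and Dynlt1f had the same 339 coding bases, and Dynlt1b differed from them at 1 base (99.7% identity). Dynlt3 was 63.6% identical to Dynlt1a, Dynll1 81.3% to Dynll2 and Dynlrb1 72.6% to Dynlrb2. Over 300 bases, 250 before and 50 after the base equivalent to the 5' end of Dynlt1b, Dynlt1b was 97% identical to Dynlt1f, 96% to Dynlt1c and 84.4% to Dynlt1a. By that wider window Dynlt1b was closer to the copies with low values than to Dynlt1a.

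Of the other members, the peaks of Dynll1, Dynlrb1 and Dynlrb2 are shown, up to 50 bases into the transcript, because each held footprints with the same or nearly the same limits in both libraries. Capitals mark bases under a footprint in both libraries.
Dynll1, chr5:115300950-115301220, minus strand: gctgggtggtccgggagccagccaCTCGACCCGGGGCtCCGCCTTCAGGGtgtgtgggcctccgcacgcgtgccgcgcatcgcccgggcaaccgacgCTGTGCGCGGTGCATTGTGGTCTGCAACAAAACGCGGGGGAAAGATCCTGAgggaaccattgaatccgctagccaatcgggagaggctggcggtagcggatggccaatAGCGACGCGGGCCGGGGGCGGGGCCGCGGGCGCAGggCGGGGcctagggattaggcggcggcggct
Dynlrb1, chr2:155236421-155236582, plus strand: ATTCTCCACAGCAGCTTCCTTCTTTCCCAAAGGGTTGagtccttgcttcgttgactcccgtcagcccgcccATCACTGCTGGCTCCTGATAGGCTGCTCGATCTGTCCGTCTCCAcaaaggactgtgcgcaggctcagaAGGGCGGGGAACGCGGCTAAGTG
Dynlrb2, chr8:116504861-116505020, plus strand: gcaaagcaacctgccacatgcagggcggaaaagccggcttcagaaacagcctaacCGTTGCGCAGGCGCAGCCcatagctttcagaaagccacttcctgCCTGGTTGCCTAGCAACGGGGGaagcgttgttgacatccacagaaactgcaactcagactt
These 3 were chosen after their footprints were seen. Relative to its own 5' end, Dynll1 had a footprint of 51 bp at -124 to -74 with the same limits in both libraries, while its others were split, merged or listed in 1 library alone. At Dynlrb1, footprints lay at -42 to 2 and 27 to 62 in replicate 1 and at -41 to 2 and 27 to 63 in replicate 2. Dynlrb2 had 2 footprints in its peak, at -58 to -41 and -14 to 7 in replicate 1 and at -59 to -41 and -14 to 9 in replicate 2. In the 300 bases from 250 before to 50 after the 5' end, Dynlrb2 was the only member with NRF1 letters. Of all promoters, 5.98% hold them there. The Dynlt1 copies hold these letters past the end of that window, at 51 to 60 of the common scale. At Dynlrb2 the upstream footprint covered them at -54 to -45 in both libraries. The downstream one covered an inverted repeat at -10 to 2, GTTGC and then, after 3 bases of any kind, GCAAC, of the kind known from the X-box of RFX factors, which regulate ciliary genes. That repeat was searched for after the sequence had been seen, and 0.251% of all promoters hold it in the same window. The stricter RFX letters (GTTNCC, then AT, then GGNAAC) were found at no member and in 0.119% of promoters.

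Across the family, the 300-base promoters shared few other letters. The GC box letters were found at 9 of 9 members, against 43.0% of all promoters, and CCAAT at 6 of 9, against 39.0%. MYB letters TAACNG, of the family of the meiotic regulator A-MYB, were found at 5 of 9 (the 4 Dynlt1 copies and Dynlrb2), against 21.9%, and the short CRE letters TGACG at Dynlt3 and Dynlrb1, against 23.1%. The full CRE TGACGTCA, the YY1 letters (AAGATGG, then CGGC), the ETS letters CCGGAAGT, the E-box CACGTG and TATAAA were found at no member. Since the 4 Dynlt1 promoters are copies, they count as 1 sequence rather than 4 in each of these counts. Dynll1 and Dynll2 were rich in CpG, with 34 and 36 CpG in 300 bases, while the other 7 members had 9 to 13 and the median of all genes was 11. Dynlt1b, chosen for its high value, had 12, and a link between CpG number and promoter value was not tested.

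All highest peaks of the members held footprints. A footprint touched the highest peak in both libraries at 9 of 9 members, against 66.9% of all genes. That share counts every gene that was not open as lacking a footprint. Of the 21911 genes, 15057 were open and 14654 met the footprint rule, so nearly all open genes did. Nothing is therefore read from the 9 of 9. In the promoter windows, Dynll2 had the most, 16 and 17, and Dynlt1a had 11 and 12. Dynlrb2 had the fewest, 3 in each library, and Dynlt3 had 4 and 5. Dynlt1b, with the highest value, had 7 and 5, below the medians of 8 and 9 over all open genes. Dynlt1c had 8 and 11, Dynlt1f 9 and 11, Dynll1 9 and 9, and Dynlrb1 8 and 14. Members with more annotated starts have wider windows, 4950 bases at Dynll2 with 4 starts against 2001 at Dynlt1b with 1, which adds room for footprints.

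The extent of significant cutting gave another order. The deposited track lists bases at a false discovery rate (FDR) under 0.05, and in the promoter windows these numbered 1685 and 1672 at Dynll2, 1532 and 1593 at Dynll1, 1378 and 1584 at Dynlt1a, and 1025 and 1350 at Dynlrb1. Dynlt3 had 896 and 946, Dynlt1f 741 and 877, and Dynlt1c 604 and 689. Dynlt1b had only 478 and 527 such bases and Dynlrb2 390 and 379, while the median over open genes was 1027 and 1060. As a share of the windows, which range from 2001 bases at Dynlt1b to 6003 at Dynlt3, the order differed. Dynlt1a had the highest share, 66.2% and 76.04%, followed by Dynlrb1 with 45.0% and 59.2%, Dynll1 with 43.0% and 44.7%, Dynlt1f with 35.6% and 42.1%, Dynll2 with 34.0% and 33.8% and Dynlt1c with 28.3% and 32.3%. Dynlt1b had 23.9% and 26.3%, Dynlrb2 19.1% and 18.6%, and Dynlt3 the lowest share, 14.9% and 15.8%. The stretch at Dynlt1b ran from -228 to 249 and from -243 to 283, and that at Dynlt1a from at least -601 to 230 and from at least -607 to 234. By its number of bases under the limit, the promoter of Dynlt1b thus lay below the median open gene. Its window of 2001 bases is the smallest the rule allows, and the median share of the window over all open genes was not computed. The lowest FDR was listed at 1.47e-319 and 0 at Dynlt1b and at 5.86e-159 and 2.58e-174 at Dynlt1a, but at 4.17e-17 and 1.71e-16 at Dynlt1c and 1.06e-11 and 4.22e-13 at Dynlt1f. Dynlrb2, with a peak value below that of Dynlt1c in replicate 1 and above it in replicate 2, had 1.23e-45 and 7.49e-54. Dynlt3, with a lower peak value than Dynlt1c or Dynlt1f, had 8.75e-44 and 8.28e-54. For their peak values, the Dynlt1c and Dynlt1f promoters therefore had weaker FDR values than both of these members with unique sequence. The share of unique 36-base words in the peak was 55.8% and 49.7% at Dynlt1c and 21.8% at Dynlt1f, against 100% at Dynlrb2 and Dynlt3. At Dynlt1b it was 52.8%, beside the lowest FDR of all members. The part of this share in the FDR values was not tested.

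Distal peaks, those up to 50 kb from a start that touch no gene's promoter window, were found in both libraries at 8 of 9 members, against 83.9% of all genes. Dynlt3 had none in either library. Dynll2 had 6 in each, all present in both libraries, the strongest 19.7 kb downstream of its 5' end at chromosome 11, 87967721 to 87967920, with 2.82 and 2.24, which is 44.1% and 48.5% of its promoter value. Dynll1 had 4 and 5, of which 3 were in both, with the strongest of these 18.8 kb upstream (1.55 and 1.60). Dynlrb1 had 3 and 2 with 1 in both, 42.0 kb downstream (0.656 and 0.585), and Dynlrb2 had 3 and 6 with 3 in both, led by one 23.9 kb upstream (0.602 and 0.536). The median over all genes was 4 in each library, so the members' numbers lay around it.

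At the Dynlt1 genes distal peaks were weak beside the promoter of Dynlt1b. Dynlt1a had 3 and 4 of them, Dynlt1b 5 and 10, Dynlt1c 7 and 5, and Dynlt1f 6 and 5. The highest near Dynlt1b, 0.720 in replicate 1 and 0.789 in replicate 2, was 1.34% and 1.33% of the promoter value. Near Dynlt1f it was 2.44 and 1.56, at 35.9 kb upstream, or 91.3% and 68.7% of the promoter value. One element recurred with the copies. A peak lay 5.28 and 5.31 kb upstream of Dynlt1b (0.586 and 0.789), 5.34 kb upstream of Dynlt1c (0.935 and 1.14), and 5.40 and 5.39 kb upstream of Dynlt1f (1.08 and 1.46). Their sequences aligned to each other at 94.8% to 98.3% identity. Here the order was opposite to that of the promoters, with Dynlt1b lowest in both libraries, and a copy upstream of Dynlt1a was not found in the alignment. Dynlt1f and Dynlt1a also had an intronic peak, at 1.88 and 1.54 for Dynlt1f and at 1.85 and 1.87 for Dynlt1a, in aligned sequence of 97.1% identity.

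**Figure D4:**
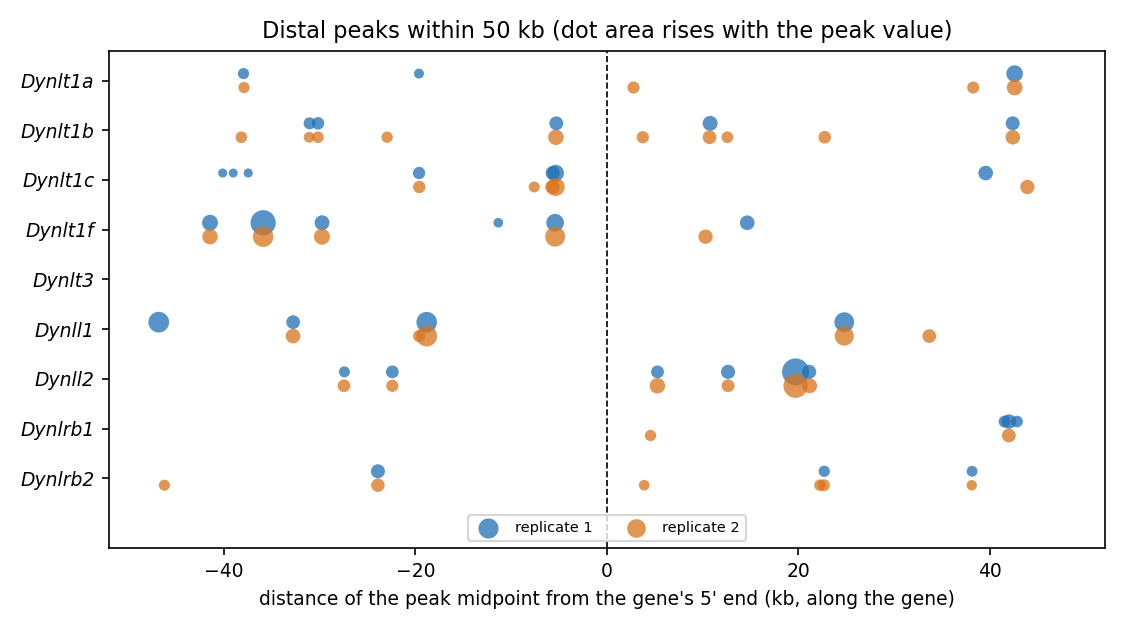
Distal peaks of the 9 members by distance of the peak midpoint from the gene's 5' end (kb, along the gene), in replicate 1 (blue) and replicate 2 (orange), with dot area rising with the peak value. The row of Dynlt3 is empty, all 6 peaks of Dynll2 recur, and dots near -5 kb appear at Dynlt1b, Dynlt1c and Dynlt1f.

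The other genes of the dynein machinery were open as well. All 38 of 38 genes listed for the dynein motors, dynactin and their regulators had a promoter peak in both libraries, against 68.7% of all genes. The 5 subunit genes of dynein 1 had a median of 6.45 ± 0.485 (SD, n = 2), with the light intermediate chain Dync1li1 at 11.1 ± 1.58 and the intermediate chain Dync1i2 at 7.42 ± 0.889. The 5 genes of dynein 2, the motor of cilia, had 7.14 ± 0.617, with Wdr34 at 12.8 ± 1.30 and Tctex1d2 at 7.93 ± 0.201. Dynactin, the complex that links dynein to cargo, had 8.43 ± 0.356 over 12 genes, led by its filament subunit Actr1a at 14.6 ± 0.195 and by Dctn5 at 13.0 ± 0.742. Actr1a shares its peak with Sufu and Dctn5 with Palb2. The 11 regulators and adaptors had 9.44 ± 0.125, with Ndel1, a partner of Lis1, at 20.1 ± 0.956 and Hook1, needed for the shape of the sperm head, at 18.2 ± 2.45. The 5 other light chain relatives had 1.20 ± 0.111, with the axonemal light chains Dnal4 at 9.88 ± 0.136 and Dnal1 at 4.04 ± 0.0642 and 3 genes lower. By mean, none of the 38 reached Dynlt1a (20.8), though in replicate 2 Hook1 (19.96) and Ndel1 (19.5) stood above Dynlt1a (17.5). The family was chosen for the high value of Dynlt1b (56.7), so its place above the 38 was fixed in advance. The range of the light chains, wider than that of any of the 5 groups, includes this chosen value.

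**Figure D5:**
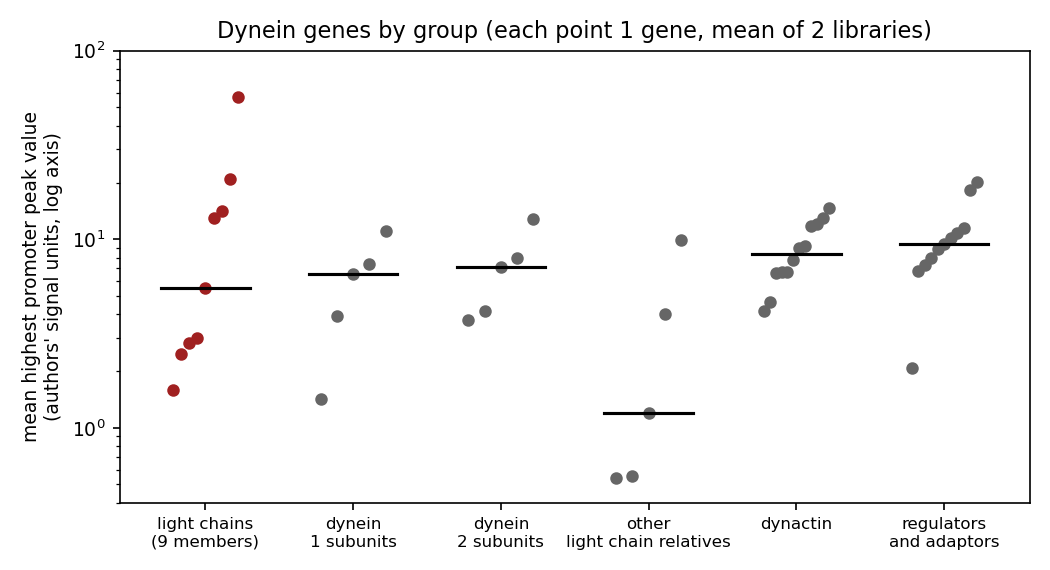
Mean highest promoter peak value over both libraries (authors' signal units, log axis) of the 9 light chain members (red) and of 38 other dynein genes in 5 groups (grey), each point 1 gene, with the group median as a bar. Dynlt1b stands highest at 56.7, and the lowest points are among the other light chain relatives, whose median is 1.20.

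The tissue label was set against marker genes. Promoters were open in both libraries at 8 of 8 spermatogonial, 6 of 6 meiotic and 6 of 6 Sertoli markers, 4 of 5 of Leydig cells and 4 of 4 of peritubular myoid cells, but at 0 of 6 spermatid markers, with Prm1, Prm2, Tnp2, Acrv1 and Akap4 without a peak in either. Other cell types showed 2 of 4 endothelial, 1 of 4 leukocyte, 1 of 4 erythroid, 0 of 3 liver and 0 of 3 epididymis markers. Over all genes the share open in both libraries was 68.7%, and with lists this short nothing is read from counts near it. The median promoter value was 6.54 at meiotic, 3.12 at spermatogonial and 2.54 at Sertoli markers. It was only 0.899 at peritubular myoid, 0.643 at Leydig and 0.216 at endothelial markers. Replicate 1 had 101172 peaks and 269247 footprints, and replicate 2 had 117359 and 349555. The files do not give the read depth, which is therefore unknown, so the values carry no counting interval.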

How the data were processed

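DNase-seq of 2 testis libraries (1 group) was used. The authors made all files of a library from its own alignments on mm10, per the text descriptions deposited with the files. The peak value is the deposited signal column of the peak files, scaled per library by the authors. The deposited FDR track holds q-values, which the authors listed under 0.05. In the footprint files deposited by the authors the p-value is 1 constant threshold, so only positions were used. The sources used here do not state the aligner, callers, read length or read placement.

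Protein-coding genes came from GENCODE vM21, on the 19 autosomes, X and Y. For each gene the promoter value was that of the highest peak of the longer list overlapping, by at least 1 bp, 1000 bp on each side of any annotated start, and open means that such a peak was listed in both libraries. Distances count the 5' end as 0. Copies were searched with blastn 2.17.0 in GRCm38.p6, which is mm10, kept as full where at least 80% of the peak aligned at 80% identity or more, and sequences were taken from it. Words of 36 bases (24 and 76 as alternatives) were counted exactly over the whole genome on both strands. Motif letters were searched on both strands. The sequences of the Dynlt1 promoters are not reported here. Scripts ran in Python 3.11.15 with numpy 2.4.6, pandas 2.3.3 and biopython 1.88, and the window and word counts were tested on simulated data. A planned protein comparison was replaced by coding sequences, built from the annotation. RefSeq promoter entries matched 6 of 9 members and were not used.

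With 1 group there was no comparison to test. Values are given per library and as mean ± SD (n = 2). The genes named were all 9 members, the 2 highest of each related group, genes within 250 kb of the Dynlt1 copies, and the 3 genes nearest to Dynlt1b. The members, lists and motifs were chosen with earlier results of these data known. Alternatives changed the window, the peak list, the starts, the overlap, the distal limit, the word length and the library used.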

Additional observations from a re-analysis of the deposited data

How the results depend on the processing

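No paired analysis was possible because the libraries form a single group. All 9 members kept a promoter peak in both libraries with windows of 500 or 2500 bp, the 5' end alone, the stricter peak list, the peak midpoint rule, peaks at or above the library median, or either library by itself. Of the 38 related genes 35 kept theirs at the 5' end alone and 37 with peaks at or above the library median. The members' median promoter value, 5.51, was the same under those windows and lists, came to 7.57 when all peaks of the windows were summed, and ranged from 4.62 to 6.40 with 1 library left out. Summing moved Dynlt1f from 2.47 to 4.18. The members' median of distal peaks, 4.5, fell to 1.5 within 20 kb and to 1.5 in the stricter peak list, and rose to 9 within 100 kb. Footprints per member went from a median of 9.5 to 4.5 when only those inside a promoter peak counted. Bases under the FDR limit went from a median of 921 to 851 at a limit of 0.001 and to 731.5 in windows of 500 bp. The median share of unique words in the windows, 88.9%, was 83.2% with words of 24 bases and 94.7% with words of 76. This median hides the Dynlt1 windows. With words of 36 bases their share was 42.9% at Dynlt1a, 29.8% at Dynlt1b, 17.4% at Dynlt1c and 27.2% at Dynlt1f. With 2 libraries of unknown depth no interval narrower than their spread can be given. The placement of reads among the Dynlt1 copies could not be varied from these files.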

Other observations

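The Dynlt1 locus held peaks in repeated sequence that belong to none of the annotated light chain genes. The region from 6296340 to 6665900 of chromosome 17, which spans the 4 copies, held 24 peaks in replicate 1 and 28 in replicate 2. Of the 24 peaks, 21 had a further copy of their sequence within the region. For 11 of these at least 1 copy also touched a peak in a library, and for 10 none did. A peak at 6493041 to 6493220, between Dynlt1b and Dynlt1c, had 3.02 in replicate 1 and 2.97 in replicate 2, a value in the range of Dynlt1c. Its sequence aligned to the stretch just downstream of the start of all 4 Dynlt1 genes at 96.6% to 97.1% identity. A second peak beside it, at 6492681 to 6492819, had 0.935 and 0.891 and aligned at 97.1% to the intronic peak of Dynlt1a and at 95.7% to that of Dynlt1f. None of the 9 members has an annotated start at this place.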
